A study of Mus musculus with 6 samples.

Results

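The interferon response and antigen presentation genes are 44 of the 21853 protein-coding genes of the mouse, chosen by name: 14 receptors and factors, 21 antiviral effectors and 9 antigen presentation genes. Their promoters were followed in ATAC-seq libraries, where a transposase cuts accessible DNA and the cut fragments are sequenced. The libraries came from cells labelled skeletal stem and progenitor cells (SSPCs) of untreated C57BL/6 mice, plated from tibial and femoral marrow and collected at passage 1, and the comparison asked whether chromatin opens with age. There were 3 libraries labelled young and 3 labelled middle-aged. All 6 share the strain, the culture and the absence of treatment, and the labels give the age as these words alone. No sorting step is described, so the cultures can hold other marrow cells that adhere. Nothing states which mice gave which library, so p-values measure only the spread between these 6 libraries.

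A gene had a peak at its transcription start site (TSS) when a peak in a library's list overlapped 1000 bp either side of any of its protein-coding TSSs. Lists differ in length and depth, so each peak was placed by its percentile rank within its own list, by the −log10 q of the peak caller, where 100 is the strongest peak of that library and 0 the weakest. Where a gene had several TSS peaks, the highest-ranking was used.

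Interferons are secreted proteins that warn cells of infection. Type I interferons bind the receptor of Ifnar1 and Ifnar2, and interferon gamma binds that of Ifngr1 and Ifngr2. Bound receptors activate Janus kinases, and Stat proteins then enter the nucleus, where Stat2 with Irf9 forms part of the complex that binds the interferon-stimulated response element (ISRE) in the promoters of antiviral genes. Interferon gamma acts mainly through gamma-activated sites (GAS) and raises the machinery that cuts proteins into peptides and shows them on MHC class I molecules at the cell surface. Immune and stromal cells of the marrow carry these receptors, and hematopoietic and progenitor cells respond to interferon in infection and inflammation.

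The ISRE is the sequence on which the antiviral branch turns. It was searched as the letters GAAANNGAAA, on both strands, where N is any base and matches may overlap. RefSeq lists promoter windows, from 250 bases before to 50 after a start, on build GRCm38.p6 (mm10) for 37 of the 44 genes. The letters stood in 16 of these 37 genes (43.2%), against 4.02% of all protein-coding genes with a listed promoter and 3.42% of all 20143 windows. They were in 12 of 17 effectors, 3 of 14 receptors and factors and 1 of 6 antigen presentation genes. Shown first are stretches around the matches of 6 genes whose match lay under a called peak in every library, 5′ to 3′ along the strand of the gene, with the matched letters in capitals (TTTCNNTTTC is the same motif read on the other strand).
Ifit1 (chr19:34640760-34640838, plus strand): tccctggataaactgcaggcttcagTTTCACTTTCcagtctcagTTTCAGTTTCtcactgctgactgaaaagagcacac
Gbp2 (chr3:142620579-142620638, plus strand): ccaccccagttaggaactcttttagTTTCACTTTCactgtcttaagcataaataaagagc
Gbp7 (chr3:142530258-142530317, plus strand): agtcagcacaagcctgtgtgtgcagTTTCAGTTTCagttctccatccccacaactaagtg
Bst2 (chr8:71537562-71537627, minus strand): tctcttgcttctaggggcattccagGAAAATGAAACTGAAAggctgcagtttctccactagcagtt
Socs1 (chr16:10785579-10785644, minus strand): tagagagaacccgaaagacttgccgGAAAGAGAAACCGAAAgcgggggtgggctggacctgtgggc
B2m (chr2:122147523-122147582, plus strand): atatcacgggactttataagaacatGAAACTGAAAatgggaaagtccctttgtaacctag

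The next 5 are antiviral effectors whose matches lay under a called peak in fewer libraries: 5 for Rsad2, 2 for Gbp5, 1 for Ifit3, 1 for Oas1a and 0 for Isg15. Oas1a and Isg15 hold runs of overlapping matches like those of Bst2 and Socs1.
Rsad2 (chr12:26456538-26456597, minus strand): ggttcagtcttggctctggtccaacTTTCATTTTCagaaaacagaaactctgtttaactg
Gbp5 (chr3:142496744-142496803, plus strand): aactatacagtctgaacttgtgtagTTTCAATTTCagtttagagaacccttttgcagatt
Ifit3 (chr19:34583348-34583441, plus strand): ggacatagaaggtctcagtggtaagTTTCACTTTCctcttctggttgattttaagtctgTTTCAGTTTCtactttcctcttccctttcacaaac
Oas1a (chr5:120907505-120907570, minus strand): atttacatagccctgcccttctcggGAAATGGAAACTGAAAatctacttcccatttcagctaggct
Isg15 (chr4:156200850-156200921, minus strand): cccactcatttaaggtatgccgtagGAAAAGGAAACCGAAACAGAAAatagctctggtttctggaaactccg

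Ifit1 and Ifit3, neighbours on chromosome 19, each held 2 separate matches, yet the matches of Ifit1 were covered in all 6 libraries and those of Ifit3 in 1. Isg15, with 3 overlapping matches, had no called peak nearer than 2226 bp to its start in any library. In all, 8 of the 16 genes had a match under a peak in every library, 6 in some libraries and 2 in none. Gbp3 was the other gene with none: its TSS peak lay downstream, at other start sites of the gene. A match of letters is a description and does not show that a factor was bound.

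**Figure D1:**
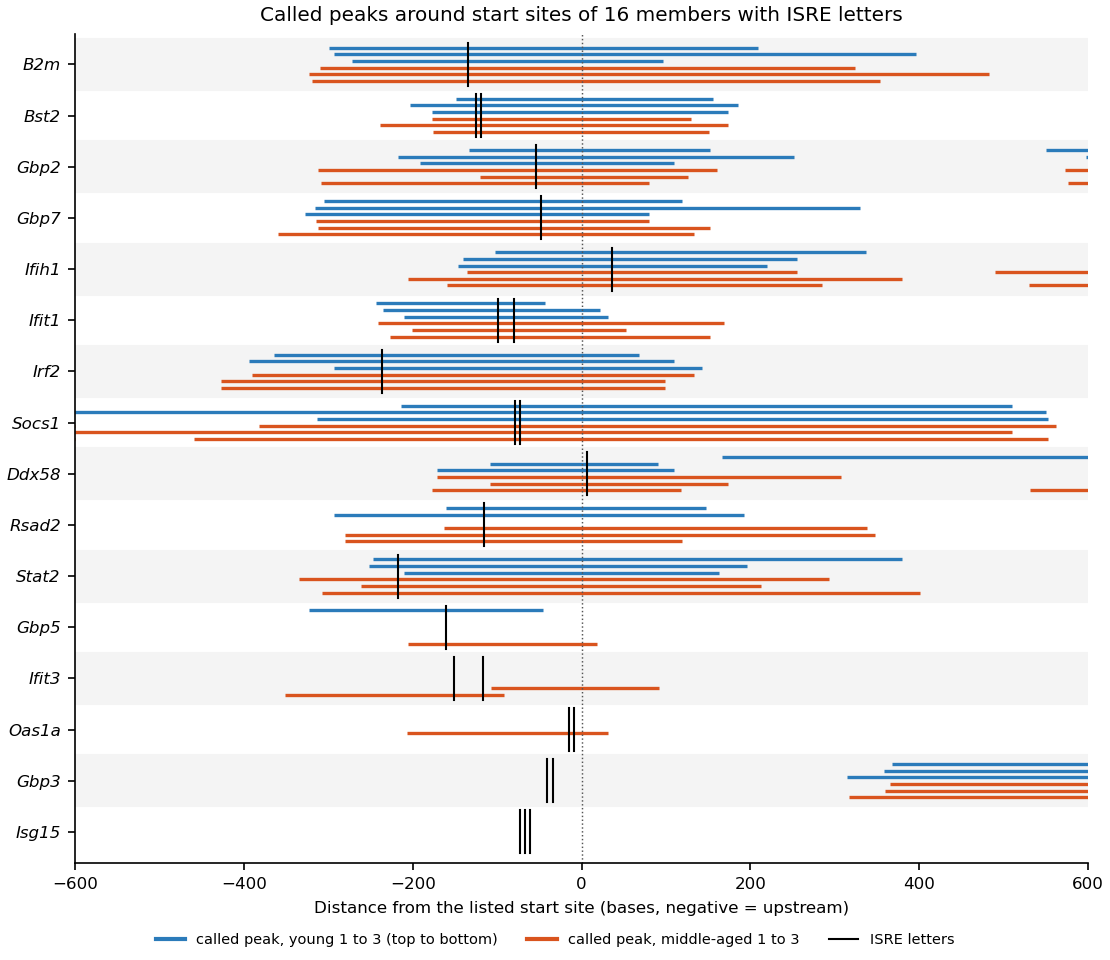
Called peaks (horizontal bars, blue for young, orange for middle-aged, 1 line a library) and ISRE letters (black ticks) by distance in bases from the start site RefSeq lists, for 16 genes. The letters of B2m, Bst2, Gbp2, Gbp7, Ifih1, Ifit1, Irf2 and Socs1 lie under a peak in all 6 libraries, and those of Gbp3 and Isg15 in none.

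A TSS peak was present in all 6 libraries for 32 of the 44 genes (72.7%), against 48.4% of all protein-coding genes. A further 9 had one in 1 to 5 libraries (background 13.2%) and 3 in none (background 38.5%). Young 1, 2 and 3 had 35, 37 and 33 of the 44, and middle-aged 1, 2 and 3 had 37 each. The young mean was 35 ± 2 and the middle-aged mean 37 ± 0 (SD over 3 libraries each), and young 2 equalled the middle-aged libraries. The roles differed more than the ages did. Of the receptors and factors 13 of 14 were called in all 6 libraries, of the antigen presentation genes 7 of 9, and of the antiviral effectors 12 of 21. In bulk samples, fewer cells with an open promoter and less open chromatin per cell cannot be told apart.

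The young lists held 35953, 43941 and 27628 peaks and the middle-aged ones 46364, 46745 and 48344. Relative depth, taken as the background reads per base solved from the peak values, was 1.65 in young 3, the shallowest library, 2.40 to 2.79 in the middle-aged libraries, 2.83 in young 2 and 3.75 in young 1. The markers gave a mixed picture of the SSPC label. Of 12 SSPC genes, 4 (33.3%) had a TSS peak in all 6 libraries, below the 48.4% of all genes. Lepr, Prrx1, Thy1 and Vcam1 had none in any. Young 3 alone held fewer SSPC genes than the background, 33.3% against 49.5% of all genes. The other libraries held 58.3% to 66.7% of them, against 54.5% to 58.0% of all genes. Of 12 macrophage genes, 11 (91.7%) were called in all 6, the exception being Csf1r, called in young 2 and 3. The median rank of those 11 ran from 39.6 to 59.3 in young and from 64.2 to 67.9 in middle-aged libraries, and that of the 4 SSPC genes from 38.8 to 65.7 and from 71.3 to 76.5. Endothelial genes were called in 3 to 6 of 10, lymphocyte genes in 0 to 2 of 10 and hepatocyte genes in 0 to 1 of 10. Macrophages express most genes described here, and their part in the values below was not tested.

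**Figure D2:**
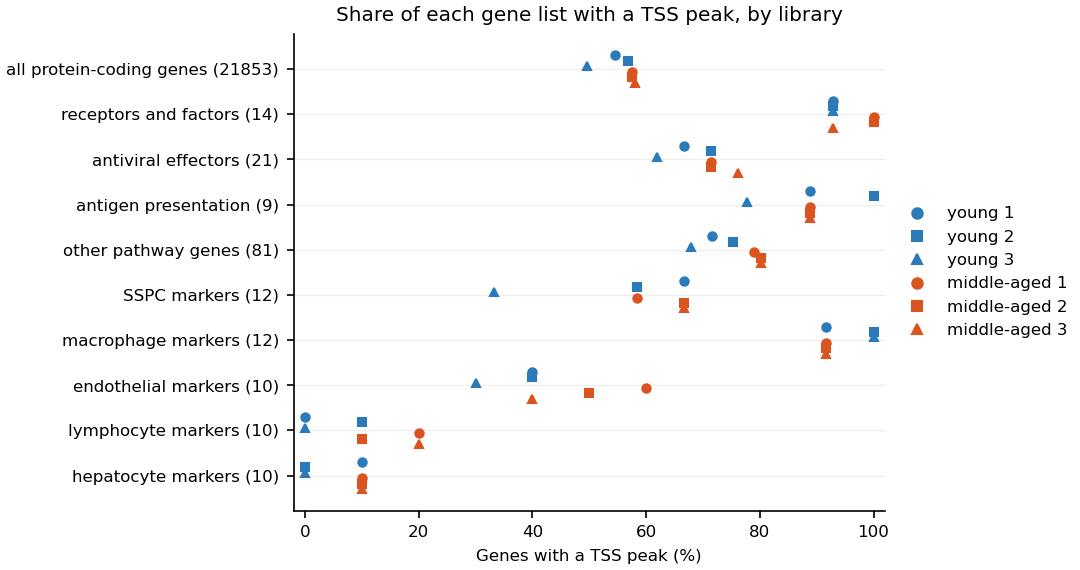
Share of each gene list with a TSS peak (%, x axis) in each library (points, blue young, orange middle-aged), with the number of genes in parentheses. Receptors and factors lie at 92.9% or above in every library, antiviral effectors between 61.9% and 76.2%, and macrophage markers at 91.7% or above.

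Among the receptors and factors, a chain of each receptor stood highest. Ifngr1, the ligand-binding chain of the interferon gamma receptor, ranked 96.9, 96.1 and 97.0 in young 1, 2 and 3 and, in the same order of numbers, 98.2, 97.8 and 97.9 in middle-aged libraries. Ifnar1, a chain of the type I receptor, ranked 94.2, 95.3 and 93.6 in young and 96.5, 96.0 and 98.0 in middle-aged libraries. Both were thus among the strongest peaks of every list, and every middle-aged value lay above every young one. The differences were 1.31 points (SE 0.465) for Ifngr1 and 2.48 points (SE 0.825) for Ifnar1. In limma over all 10569 genes called in every library, the unadjusted p-values were 0.0205 and 0.0152, and the adjusted p was 0.312 for both.

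The partner chains were weaker and more variable. Ifnar2 ranked 60.3, 79.4 and 65.2 in young and 77.1, 73.6 and 65.7 in middle-aged libraries, so the groups overlapped. Ifngr2 ranked 77.4, 73.9 and 55.7 in young and 80.7, 78.6 and 84.8 in middle-aged libraries, and the groups did not overlap. The highest-ranking peak of Ifngr2 was not the same in each library. Relative to the start, its summit lay at −34 and −36 bp in young 1 and 2, while in young 3 and the middle-aged libraries it lay between −480 and −456 bp. Its difference of 12.3 points (SE 6.57, limma adjusted p = 0.319) therefore compares different peaks. The peak covering the start ranked 77.4, 73.9 and 46.2 in young and 79.5, 73.8 and 77.4 in middle-aged libraries. At that peak the groups overlapped. Ifnar2, Ifnar1 and Ifngr2 lie in this order within 174290 bp on chromosome 16. Their mean ranks over all libraries were, in the same order, 70.2, 95.6 and 75.2.

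Of the transcription factors, Stat2 ranked highest, with a mean of 89.6 over the 6 libraries. Its lowest value, 78.7, was in young 3, and its other values lay between 89.3 and 93.9. Irf1, an activator that interferon gamma induces, ranked 77.8, 89.1 and 83.3 in young and 89.6, 89.2 and 90.2 in middle-aged libraries. Its groups were separated by 89.1 in young 2 against 89.2 in middle-aged 2, a gap far inside the young spread, and the difference of 6.26 points (SE 3.46) had an adjusted limma p of 0.320. Irf2, which competes with Irf1 for the same sites, was the steadiest factor in young libraries, at 86.4, 86.6 and 86.7, with 84.4, 88.7 and 88.0 in middle-aged ones.

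Irf4 and Irf8, factors best known from lymphoid and myeloid cells, had TSS peaks throughout. Irf4 ranked 64.1, 72.7 and 14.0 in young and 66.0, 69.1 and 70.7 in middle-aged libraries, the widest young spread in the role. Young 3 alone set it apart: young 1 and 2 spanned the middle-aged values. Irf8 ranked 58.8 to 78.5 in young and 77.2 to 87.9 in middle-aged libraries. Irf3, Irf5, Irf9 and Socs1, the last a feedback inhibitor of Janus kinases, had mean ranks between 72.7 and 83.4 with groups that overlapped. Irf3 shared its peak with the neighbouring gene Bcl2l12 in all 6 libraries, so the value cannot be given to either.

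Irf7, the factor that amplifies type I interferon production and is itself induced by interferon, was the exception of the role. It had no TSS peak in any young library, ranked 30.1 and 14.7 in middle-aged 1 and 2, and had none in middle-aged 3. Those peaks were small, with 23 and 18 reads at the summit, 200 and 212 bp wide, with summits at −22 and −12 bp from the start. In the other 4 libraries the nearest peak was 2398 to 2451 bp away.

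**Figure D3:**
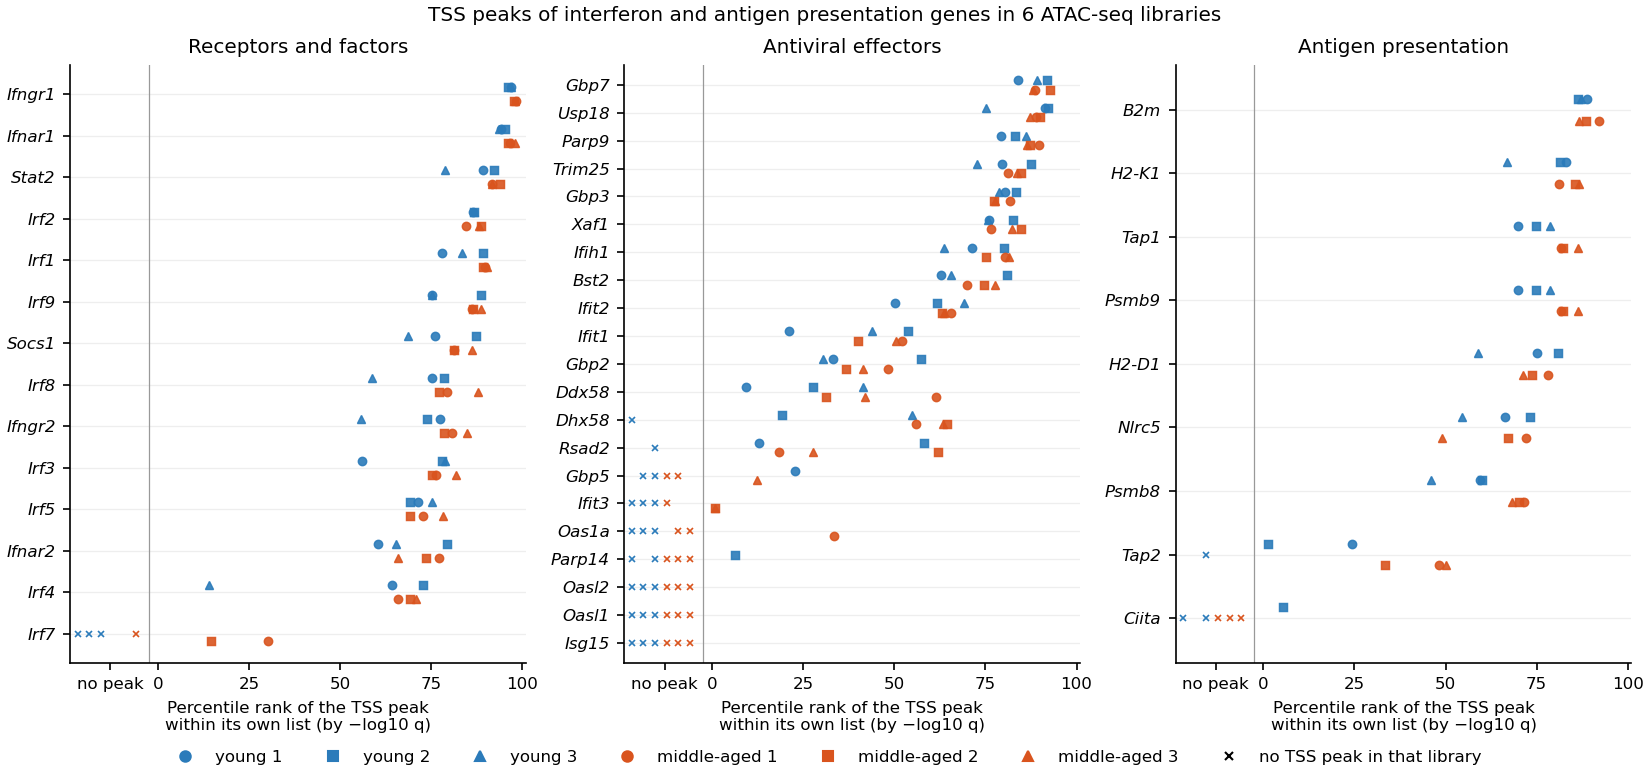
Percentile rank of the highest TSS peak within its own list (x axis, by −log10 q) for 44 genes in 6 libraries (symbols, blue young, orange middle-aged), with crosses for a library without a TSS peak. Ifngr1 and Ifnar1 sit above 93 in every library, and Isg15, Oasl1 and Oasl2 have no TSS peak in any.

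The antiviral effectors spread over the whole range. Gbp7, a guanylate-binding protein of the interferon gamma response, ranked 84.0, 92.0 and 89.1 in young and 88.5, 92.7 and 88.2 in middle-aged libraries. Usp18, which removes Isg15 from proteins and restrains type I receptor signaling, ranked 91.3, 92.2 and 75.2 in young and 88.9, 90.1 and 87.3 in middle-aged libraries. Both overlapped between the ages, with young 3 the lowest for Usp18 and young 1 for Gbp7.

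The RIG-I-like receptors, sensors of viral RNA, stood far apart. Ifih1 (MDA5) ranked 71.3, 80.0 and 63.7 in young and 80.5, 75.1 and 81.5 in middle-aged libraries. Ddx58 (RIG-I) ranked 9.26, 27.7 and 41.4 in young and 61.3, 31.4 and 41.9 in middle-aged libraries, the lowest mean of the effectors called everywhere, 35.5. Dhx58 (LGP2), which modulates both, had no TSS peak in young 1, ranked 19.1 in young 2 and 54.8 in young 3, and stood at 55.9, 64.4 and 63.4 in middle-aged libraries. The peak of Ddx58 in young 1 lay inside the gene, with its summit 204 bp past the start. In the other libraries the summit lay between −26 and −1 bp. The young 1 peak overlapped those of middle-aged 1 and 2 in part, and not those of young 2, young 3 and middle-aged 3. The ranks of Ddx58 differed widely within each age, and its difference of 18.7 points (SE 12.5) had an adjusted limma p of 0.354. The values of Dhx58 in middle-aged libraries all lay above those of young 2 and 3, but no test was made where a library lacked a peak.

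The Gbp and Ifit genes lie in clusters, and neighbours differed widely. Gbp5, Gbp7, Gbp3 and Gbp2 have their starts within 123703 bp on chromosome 3, with Gbp7 at a mean rank of 89.1, Gbp3 at 79.9 and Gbp2 at 41.3. Gbp2 ranked 33.3, 57.3 and 30.5 in young and 48.4, 36.7 and 41.4 in middle-aged libraries, so its groups overlapped, and the peak ranked in middle-aged 3 lay inside the gene, apart from that of the other libraries. Gbp5 was called in young 1, at 22.7, and in middle-aged 3, at 12.3, and nowhere else. Ifit2, Ifit3 and Ifit1, which bind viral RNA, lie within 90178 bp on chromosome 19, with mean ranks of 62.3 for Ifit2 and 43.5 for Ifit1. Ifit3 was called only in middle-aged 2 and 3, at ranks of 0.957 and 0.798, with 11 and 12 reads at the summit. These 2 peaks were among the weakest of their lists. The Ifit1 peak also overlapped the window of Ifit1bl2, a near-copy. Ifit, Gbp and Oas genes have near-identical copies, and how reads that map to several places were treated is not given in the sources used here, so their values are uncertain.

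The remaining effectors with gaps were mostly at the weak end of the lists. Rsad2 (viperin), an inhibitor of viral replication, ranked 12.8 and 58.2 in young 1 and 2, had no TSS peak in young 3, and ranked 18.4, 62.1 and 27.7 in middle-aged libraries. Both ages held low and high values. Oas1a, a sensor of double-stranded RNA, was called in middle-aged 1 alone, at 33.5, with 18 reads at the summit, and no other library had a peak within 25000 bp of its start. Parp14 was called in young 2 alone, at 6.46. Isg15, the ubiquitin-like protein of the antiviral response, and the Oas-like genes Oasl1 and Oasl2 had no TSS peak in any library. The nearest peak lay 2226 to 2257 bp from Isg15 in all 6 libraries, 1005 to 87703 bp from Oasl1 and 15317 to 69123 bp from Oasl2. For Isg15 those peaks ranked 47.9, 28.2 and 54.6 in young and 63.2, 63.8 and 59.4 in middle-aged libraries. They lay outside the window, and whether they belong to Isg15 was not tested.

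Parp9, which acts with Dtx3l on chromatin after DNA damage and interferon, ranked 79.3, 83.2 and 86.0 in young and 89.7, 87.2 and 86.3 in middle-aged libraries. It was the only one of the 12 effectors called everywhere with ranks that did not overlap, with 86.0 in young 3 just under 86.3 in middle-aged 3. Of all genes, 30.6% did not overlap and were higher in middle-aged libraries. Its highest-ranking peak covered none of its own start sites: the summit lay 826 to 958 bp downstream, in the window of Dtx3l, whose peak it shared in every library. A weaker peak covered a start of Parp9 in each library. That peak ranked 17.8, 56.8 and 47.7 in young and 58.8, 52.9 and 51.9 in middle-aged libraries, so its groups overlapped. The difference of 4.92 points (SE 3.32) at the highest-ranking peak had an adjusted limma p of 0.357. Xaf1, Bst2, Trim25, Gbp3 and Ifit2 had mean ranks between 62.3 and 81.5 and overlapping groups.

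The antigen presentation genes were led by B2m, the light chain of every MHC class I molecule, at 88.7, 86.4 and 87.2 in young and 92.1, 88.6 and 86.7 in middle-aged libraries. The class I heavy chain H2-K1 ranked 83.1, 81.5 and 67.0 in young and 81.2, 85.6 and 86.5 in middle-aged libraries. H2-D1 had a mean of 72.9 and a summit inside the gene, 222 to 312 bp past the start. These 3 genes overlapped between the ages, and the heavy chains too have near-identical copies.

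Of the 7 genes of this role called everywhere, only peptide-supply genes on chromosome 17 had ranks that did not overlap. Of all genes, 30.6% did not overlap in the same direction. Psmb8, a catalytic subunit of the immunoproteasome, ranked 59.4, 60.1 and 46.0 in young and 71.7, 70.3 and 68.1 in middle-aged libraries. Psmb9, another subunit, and Tap1, a chain of the transporter that carries peptides to MHC class I, are read outward from a shared promoter and had the same peak, at 69.9, 74.8 and 78.6 in young and 81.6, 82.2 and 86.4 in middle-aged libraries. Each middle-aged value of both peaks thus exceeded each young one. When ranked only among the genes called in every library, both peaks overlapped between the ages. There young 3 stood at 17.8 for Psmb8 and 52.0 for Psmb9 and Tap1, above every middle-aged value. Within the whole list the difference was 14.8 points (SE 7.01) for Psmb8 and 8.91 points (SE 4.57) for Psmb9 and Tap1. The adjusted limma p-values were 0.312 and 0.316. Tap2, the other transporter chain, lies in the same 21370 bp and was weaker: 24.4 and 1.20 in young 1 and 2, none in young 3, and 48.2, 33.3 and 50.1 in middle-aged libraries. The Tap2 peak ranked in young 2 did not overlap that of the other 4 libraries, at another start site, so the values compare different peaks.

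The regulators stood lower. Nlrc5, the transactivator of MHC class I genes, ranked 66.4, 73.2 and 54.6 in young and 72.0, 67.1 and 49.0 in middle-aged libraries, and its difference was −2.04 points (SE 8.53). Ciita, the transactivator of MHC class II, was called in young 2 alone, at 5.49. Ciita is expressed mainly in professional antigen-presenting cells and otherwise after interferon gamma.

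Of the 44 genes, 2 had a TSS peak in at least 2 libraries more in middle-aged than in young samples, Irf7 and Ifit3 (each 0 against 2), against 2.78% of all genes. None had so in young, against 0.11% of all genes. Over the 32 genes called everywhere, the rank difference was above 0 in 30, against 93.9% of all genes, and its median was 4.60 points, against 4.97 points over all 10569 genes. The median was 5.75 points for the receptors and factors, 3.46 for the antiviral effectors and 7.27 for the antigen presentation genes. The ranks did not overlap and were higher in middle-aged libraries in 8 of 32 genes, against 30.6% of all genes, and higher in young ones in 0, against 0.274%. The 8 were Ifnar1, Ifngr1, Ifngr2 and Irf1, the effector Parp9, and Psmb8, Psmb9 and Tap1. Psmb9 and Tap1 have the same peak and so count 1 measurement in both, and the Parp9 peak is shared with Dtx3l. At the peaks covering a start of Ifngr2 and of Parp9, the groups overlapped. With adjusted limma p-values, 0 of 32 genes and 0% of all genes passed 0.05. Unadjusted, 2 of the 32 did, Ifnar1 and Ifngr1, against 15.2% of all genes. An exact permutation test of a single gene cannot go below p = 0.1 with 3 libraries against 3. Middle-aged lists were longer than all young ones, and these differences stand beside a shift of nearly all genes.

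Young 3 gave the lowest of the 6 ranks for 15 of the 32 genes (46.9%, against 68.6% of all genes), and young 1 for 11 (34.4%, against 19.0%). Young 2 gave the highest for 11 (34.4%, against 14.0%). The SD over the 3 libraries was larger in young than in middle-aged samples for 26 of the 32 genes (81.2%), near the 83.8% of all genes. Without young 2 the median difference became 9.09 points, against 6.84 over all genes, and the genes that did not overlap 19 of 32, against 58.7% of all genes. Without young 3 the median was 2.18 points, against 2.39 over all genes.

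Ranks among the 10569 genes called in every library take the length of the list out. On that scale the median of the 32 genes was −5.20 points, with 10 above 0, against 49.7% of all genes. By role, the receptors and factors had a median of 1.19 points with 7 of 13 above 0, the antigen presentation genes −1.19 with 3 of 7, and the antiviral effectors −8.08 with 0 of 12. The median effector stood at 31.8, 38.0 and 40.8 in young and at 27.0, 23.7 and 26.5 in middle-aged libraries. The 3 middle-aged medians lay below the 3 young ones. The lowest was Gbp3, at 42.5, 41.7 and 52.2 in young and 33.2, 25.5 and 23.1 in middle-aged libraries, or −18.2 points. The highest was the receptor Ifnar1, at 78.9, 79.3 and 82.1 in young and 83.1, 80.7 and 90.0 in middle-aged libraries, 4.49 points higher. On this scale 0 genes of all tested passed an adjusted limma p of 0.05, and 3 of the 32 and 648 of all had an unadjusted p under 0.05. Young 3 touches this result: it gave the highest of the 6 ranks among genes for 19 of the 32, against 25.2% of all genes. The receptor median turned to −3.76 without young 1 and −1.98 without middle-aged 3, and without young 2 the antigen presentation genes had 0 of 7 above 0. Without young 3, the effector median was −3.75 points with 11 of 13 below 0, and over the other libraries left out in turn it ran from −10.2 to −5.86, with at least 11 of 12 below 0. The sign of the median for all 32 thus depended on the scale. The 10 genes above 0 here were Ifnar1, Ifngr1, Ifngr2, Stat2, Irf1, Irf8, Irf9, Psmb8, Psmb9 and Tap1. They were also above 0 within the list, as were 93.9% of all genes, and the share of all genes above 0 on both scales is not given. Psmb8 was at 0.29 points, Psmb9 and Tap1 have the same peak, and Ifngr2 compares different peaks. The 10 therefore cannot be read as a set that rises with age.

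**Figure D4:**
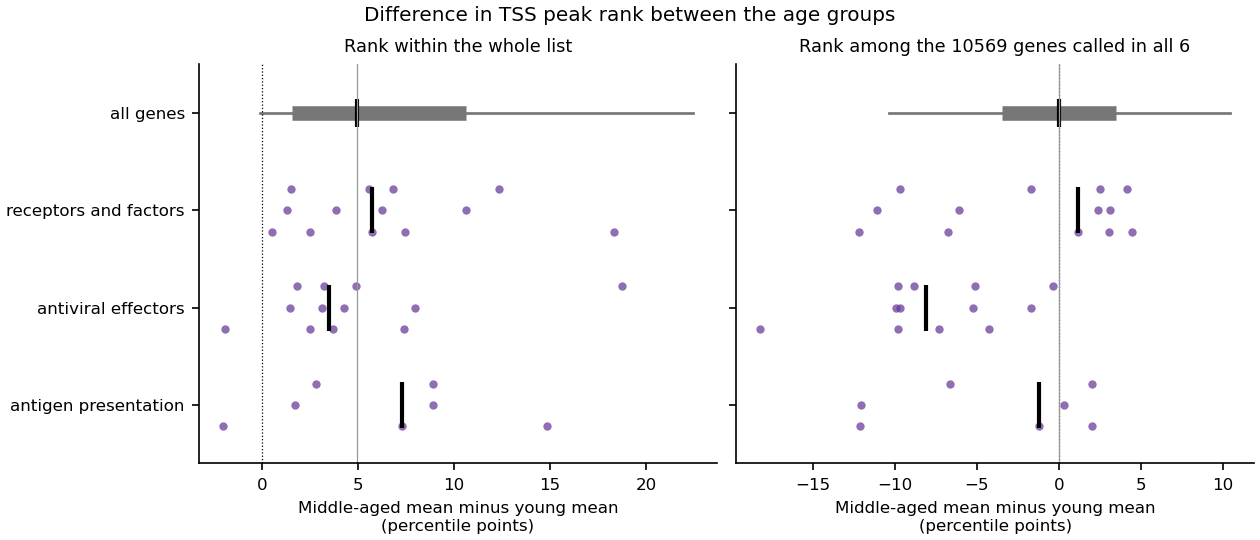
Middle-aged mean minus young mean of the TSS peak rank (percentile points), within the whole list (left) and among the genes called in all 6 libraries (right), with a point for each gene and a black bar for the median of the role. The gray bar spans the quartiles of all 10569 genes and the thin line their 5th to 95th percentiles; 0 of 12 antiviral effectors lie above 0 at right.

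Summit height, the reads at the summit divided by the genome-wide background of the library, also placed the effectors lowest. On the log2 scale the median difference was 0.48 over all genes and 0.36 over the 32. By adjusted limma p, 8 of the 32 rose in middle-aged libraries, against 46.4% of all genes, and 0 fell, against 0.00946%. Among the receptors and factors they were Ifnar1, Ifngr1, Ifngr2, Stat2, Irf1 and Irf9. Among the antigen presentation genes they were Psmb9 and Tap1, which have the same peak, and none was an effector. Ifnar1 rose by 0.64 (SE 0.21, limma adjusted p = 0.0175) and Stat2 by 0.58 (SE 0.21, limma adjusted p = 0.0269), while the difference for Gbp3 was 0.03 (SE 0.22, limma adjusted p = 0.899). With heights centred on the median gene of each library, 0 of the 32 passed, against 0.0189% of all genes, and 3 had an unadjusted p under 0.05, against 7.45%. The centred median was −0.13 for the 32, −0.25 for the effectors and 0.02 for the receptors and factors.

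Promoter make-up went with presence. The CpG ratio, observed over expected CpG in the RefSeq window, had a median of 0.732 in receptors and factors, 0.332 in antiviral effectors and 0.594 in antigen presentation genes, against 0.631 in all genes. All 16 genes with a ratio of 0.6 or above had a TSS peak in every library, against 78.9% of all genes in that class. Below 0.6 it was 13 of 21, or 61.9%, against 19.9%. The 8 listed genes with gaps, among them Isg15, Oas1a, Ifit3 and Irf7, were all in the CpG-poor class. CpG-poor genes with the ISRE letters had a TSS peak in every library for 5 of 10 members, against 22.7% of all such genes. The GC box GGGCGG, searched on both strands, stood in 13 of 14 receptors and factors and in 6 of 17 effectors, against 51.0% of all genes. CCAAT was in 5 of 6 antigen presentation genes, against 42.1%, and the GAS letters TTCNNNGAA in 11 of the 37, against 9.02%. Peaks of effectors were also narrower, with a median width of 396 bp against 538 bp in receptors and factors, 469 bp in antigen presentation genes and 564 bp in all genes.

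**Figure D5:**
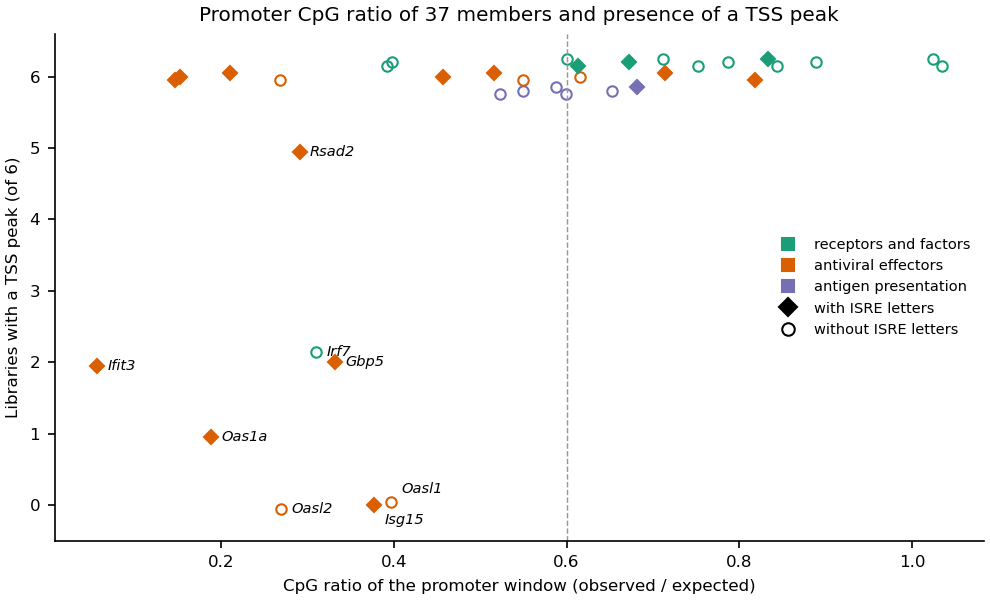
CpG ratio of the promoter window (x axis) against the number of libraries with a TSS peak (y axis, of 6; points are shifted slightly to part the roles) for 37 genes, colored by role, with filled diamonds for those with the ISRE letters. The dashed line marks 0.6, above which all 16 genes were called in all 6 libraries.

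Of 81 further genes of interferon signaling, sensing, defense and antigen presentation, 52 (64.2%) were called in all 6 libraries, against 48.4% of all genes. The libraries held 58, 61 and 55 of them in young and 64, 65 and 65 in middle-aged samples, so the groups did not overlap, as was also so for all protein-coding genes (10824 to 12417 against 12551 to 12675). Their median rank difference over the 52 was 4.07 points, against 4.97 over all genes. The ranks of 13 did not overlap and were higher in middle-aged libraries (background 30.6%), 9 had an unadjusted limma p under 0.05 (background 15.2%), and 0 passed the adjusted one. A difference of at least 2 libraries was found for 3 of the 81, all toward middle-aged. Tapbpl, a peptide editor of MHC class I, was absent in young and ranked 31.1, 4.69 and 23.7 in middle-aged libraries. H2-Ab1, an MHC class II chain, ranked 7.18 in young 1 and 7.69, 10.4 and 27.8 in middle-aged libraries. Gbp6 was called in middle-aged 1 and 3, at 6.01 and 5.57. All 3 stood in the lower part of the lists.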

How the data were processed

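ATAC-seq was read from 1 peak list per library (3 young, 3 middle-aged). The authors ran bcl2fastq, aligned reads to mm10 with Bowtie2, removed duplicates with Sambamba and called peaks with MACS. Treatment of the transposase offset and of multiply mapped reads is not given in the sources used here. Each deposited peak has a score, a fold enrichment (a linear ratio over local background), and the −log10 of its p-value and q-value, all within its own library. The authors' DiffBind comparison needs reads and was not repeated.

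TSSs came from GENCODE M21 (54361 sites, 21853 genes). Ranks were fitted with limma 3.58.1 (R 4.3.3; eBayes with trend, 2 groups, no block) over the 10569 genes with a TSS peak in all 6 libraries, with Benjamini-Hochberg adjustment. On simulated shifts of 15 and 30 points, 42% and 62% of changed genes were called over 10569 genes. Real ranks end at 100 and the median gene had a mean rank of 84.9, so it has no room for a rise of 30 points. How often a real change in these ranks would be called was not tested. The fold enrichment and −log10 p of the deposited peaks were solved together for the reads at the summit, which came out whole (within 0.05) for 100% of peaks. Genes and lists were chosen with earlier results of these data known. Values in every library are given for genes not called in all 6, those whose ranks do not overlap, and the 2 highest and 2 lowest of each role. Of the other pathway genes (83 listed, 2 without a protein-coding start), those that differ by 2 or more libraries are named. Genes named for other reasons were chosen after their values were seen.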

Additional observations from a re-analysis of the deposited data

How the results depend on the processing

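No gene of the 32 passed an adjusted limma p of 0.05 on ranks in any setting, and 0 of all genes did. Windows of 500 and 2000 bp, the most upstream start, a −log10 q of at least 5, thinning to the lowest background and absence counted as rank 0 kept each result within the spread between libraries or 1.5 times the count. With equally long lists (27628 peaks each) middle-aged libraries had 0.333 more of the 44 TSS peaks, the median rank difference −0.57 points, and 2 genes did not overlap, both higher in young. Among genes called everywhere the median was −5.20 points and 5 genes did not overlap, all higher in young. Ranking by fold enrichment left 4 genes that did not overlap. Summit height gave a median of 0.36 (log2), 8 of the 32 and 4909 of all genes called, and 13 that did not overlap. Centred height, chosen after seeing the data, gave −0.13, 2 of all genes called, and 5 that did not overlap, all higher in young. The cause of these shifts was not tested, but the first 2 settings fix the number of peaks or genes ranked in each library. The share of all genes that did not overlap is not given for these settings. The counts of genes that did not overlap therefore cannot be read as particular to the 32.

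With each library left out in turn, the surplus of TSS peaks in middle-aged libraries ran from 1 to 3. The median ran from 2.18 to 9.09 points, the calls from 0 to 0 and the genes that did not overlap from 8 to 19. Of all genes, 32.7% to 58.7% did not overlap and were higher in middle-aged libraries. The values 9.09, 19 and 58.7% were without young 2. A replicate block for pairing left the surplus of TSS peaks at 2, the median at 4.60 points and the calls at 0, and lowered the genes with an unadjusted p under 0.05 from 1611 to 1334. Deviations of same-numbered libraries correlated at 0.00508, −0.0359 and −0.0687 over 10569 genes. These values showed no pairing by number, and whether same-numbered libraries were prepared together is not stated. The weakest peaks rest on few reads: Ifit3 was called on 11 and 12.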
